A study of Mus musculus with 12 samples.

Results

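The activators, repressors and nuclear receptors of the interlocking loops of the circadian clock were followed through the day in pancreas of aged and young mice. The set holds 6 genes, taken by their symbols from the 40840 genes of the count table: Arntl (which encodes BMAL1), Clock, Npas2, Nr1d1 (REV-ERB alpha), Nr1d2 (REV-ERB beta) and Rora (ROR alpha). All 6 had counts. The samples are poly(A) RNA libraries of the entire pancreas of male mice of the inbred strain C57BL/6J, aged 25 months (Old) or 5 months (Young) when killed, and all had lived alone for 4 weeks under alternating light and dark. The 12 libraries are 6 of Old and 6 of Young, with 1 of each age at the labelled zeitgeber times 4, 8, 12, 16, 20 and 24 h. Tissue was taken in darkness, so hours below are those of the labels. The labels name no mutation or treatment and leave unstated how many mice went into a library. With no time repeated within an age, every test measures the spread of libraries about a fitted curve, which may be technical.

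BMAL1 pairs with CLOCK, or with its relative NPAS2, and the pair binds E boxes to switch on the Per, Cry, Nr1d1 and Nr1d2 genes. REV-ERB alpha and beta are haem-binding nuclear receptors that repress Arntl through ROR elements, while ROR alpha binds the same elements and activates. In peripheral tissues of mice this second loop is known to drive Arntl in antiphase to the REV-ERB genes. The clock runs in both acinar and islet cells of the pancreas.

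The library labelled Young 4 h stood apart from the other 11. It held 2918805 counts, against 1030189 to 1404038 in the rest. The summed level of 7 marker genes of neurons and glia was 15.97 to 37.75 CPM (counts scaled to the library's total) in the 6 Old libraries, 2191 CPM in Young 4 h and 20.42 to 24.27 CPM in the other 5 Young libraries. All 7 were above 0 somewhere in the 11 libraries. Markers of acinar cells, the enzyme-secreting cells that make up most of the pancreas, summed to 199300 to 293600 CPM in Old, to 207900 to 292200 CPM in the other 5 Young libraries and to 118000 CPM in Young 4 h. In Old 24 h, 5 immune markers summed to 257.6 CPM, against 19.91 to 68.37 CPM in the other Old libraries and 34.04 to 88.53 CPM in Young without 4 h, and its acinar sum of 199300 CPM was the lowest of the 11. The sum of 6 islet markers was highest at 16 h (764.8 CPM in Old and 702.8 CPM in Young) and lowest at 24 h (38.5 CPM in Old and 34.81 CPM in Young). At 4, 8, 12 and 20 h it was 128.2, 248.6, 217.9 and 211.6 CPM in Old, against 367.3, 52.31, 205 and 565.9 CPM in Young. With 1 library per age and time, a difference between times and one between libraries cannot be told apart. The sum of 3 fibroblast markers was 324.3 CPM in Old 24 h and 57.52 to 181.6 CPM in the other Old libraries. In Young without 4 h it was higher than in those, at 190.1 to 337.7 CPM, and in Young 4 h it was 99.01 CPM. Duct markers summed to 42.5 to 79.06 CPM in Old and 40.11 to 61.44 CPM in Young without 4 h, and fat markers to 4.705 to 28.24 and 12.8 to 53.97 CPM. Each of these markers was above 0 in some library of the 11, and their part in the results below was not tested. Because of Young 4 h, results are given for all 12 libraries and for the 11 without Young 4 h. In whole tissue, fewer cells of a type and less RNA per cell cannot be told apart. A single count was worth 0.712 to 0.971 CPM in the 11 libraries and 0.343 CPM in Young 4 h. A count of 0 allows up to 2.14 to 2.91 CPM in the 11 libraries (3 counts, a 1-sided 95% limit). The 2-sided 95% Poisson intervals used below reach higher for a count of 0, such as 3.06 CPM in Young 8 h, where 3 counts are 2.49 CPM. These limits and the intervals below cover counting error only.

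Promoter windows of Arntl, Nr1d1 and Nr1d2 are shown because Arntl peaked at other hours than both REV-ERB genes, as described below. Each window runs from 250 bases before the start site to 50 after it in RefSeq's annotation of GRCm38.p6, and capitals mark letters that matched a searched motif. Of the 6 genes, all had a window, 9 windows in all.
Arntl (chr7:113207261-113207560, plus strand): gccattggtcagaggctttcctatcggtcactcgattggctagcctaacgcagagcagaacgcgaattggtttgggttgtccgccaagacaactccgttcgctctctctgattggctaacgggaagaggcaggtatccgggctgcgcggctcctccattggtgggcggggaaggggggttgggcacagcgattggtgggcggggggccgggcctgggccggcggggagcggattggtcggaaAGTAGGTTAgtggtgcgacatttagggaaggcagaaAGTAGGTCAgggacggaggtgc
Nr1d1 (chr11:98775328-98775627, minus strand): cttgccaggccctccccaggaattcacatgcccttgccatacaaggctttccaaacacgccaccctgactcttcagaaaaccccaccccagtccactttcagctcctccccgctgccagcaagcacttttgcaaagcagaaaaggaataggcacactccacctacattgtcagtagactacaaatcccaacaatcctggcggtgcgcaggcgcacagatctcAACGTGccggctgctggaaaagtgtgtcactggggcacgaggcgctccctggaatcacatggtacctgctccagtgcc
Nr1d2 (chr14:18239057-18239356, minus strand): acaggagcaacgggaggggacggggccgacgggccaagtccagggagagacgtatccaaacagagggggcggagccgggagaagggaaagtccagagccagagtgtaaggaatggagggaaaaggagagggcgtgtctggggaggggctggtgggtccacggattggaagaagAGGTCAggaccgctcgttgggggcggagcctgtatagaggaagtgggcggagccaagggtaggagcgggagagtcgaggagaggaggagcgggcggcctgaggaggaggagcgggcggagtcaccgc
The Arntl window holds AGTAGGTTA at position -8 and AGTAGGTCA at position 28, counted with the start site as 0. Both match an extended ROR element searched as AGTAGGTNA, letters that were chosen after Arntl's promoter had been read, so the match is no finding. That motif is in 0.591% of the 32851 RefSeq windows of this length. The shorter ROR half-site AGGTCA lies within the second of these, and it also stands at position -77 in Nr1d2 and, on the opposite strand as TGACCT, at position -119 in a window of Clock. It is in 16.3% of all windows. The Nr1d1 window holds AACGTG at position -28, the opposite strand of the E box variant CACGTT, which is in 4.68% of windows. All motifs were searched on both strands, also GGGTCA (13.7% of windows), the E box CACGTG (7.15%) and the D boxes TTATGTAA and TTACGTAA (1.06% together), and these had no match in the 9 windows. No motif matched in the windows of Npas2 and Rora. In GRCm38 with the GENCODE M21 annotation the whole genes lie at chr7:113207465-113314126 (Arntl, plus strand), chr5:76209868-76304792 (Clock, minus), chr1:39193731-39363236 (Npas2, plus), chr11:98767932-98775333 (Nr1d1, minus), chr14:18204054-18239127 (Nr1d2, minus) and chr9:68653786-69388246 (Rora, plus).

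Arntl, which encodes BMAL1, was high late in the labelled night and at 4 h, and close to or at 0 in the middle of the series, in both ages. Its counts at 4, 8, 12, 16, 20 and 24 h were 35, 1, 0, 4, 36 and 45 in Old, against 69, 0, 0, 3, 35 and 40 in Young. As CPM these were 24.9, 0.784, 0, 2.95, 28.7 and 38.5 in Old, against 23.6, 0, 0, 2.91, 29.9 and 30.3 in Young. Libraries of 20, 24 and 4 h lay above those of 8, 12 and 16 h with no overlap, and the counting intervals of Old and Young in CPM overlapped at every time. Scaled by TMM factors, the 4 h values were 25.5 CPM in Old and 13.2 CPM in Young. With each 0 set to 3 counts, the highest time was 16.6-fold above the lowest in Old and 12.2-fold in Young. These folds leave out the counting error of the highest library, so they are no lower bounds. By the quasi-likelihood test of edgeR, with p adjusted by Benjamini-Hochberg over all tested genes, a 24 h curve shared by both ages had a log2 amplitude (mean of the curve to its peak) of 3.27, a peak at 23.4 h and an adjusted p of 0.00145. Without Young 4 h its amplitude was 2.99 and its adjusted p 1.64e-06. Where counts are 0, fitted amplitudes depend on the prior count and are no bound.

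Clock, whose protein is BMAL1's usual partner and a histone acetyltransferase, was present at every time and changed far less. Its values were 39.2, 27.4, 24, 51.6, 59.1 and 59.9 CPM in Old from 4 to 24 h, against 93.9, 29.1, 35.7, 70.9, 49.5 and 47.7 CPM in Young. Both ages were lowest at 8 and 12 h and higher from 16 to 24 h. The value of 93.9 CPM in Young 4 h, 274 counts, came with the neural markers above, and their part in it was not tested. Scaled by that library's TMM factor of 1.79, it was 52.5 CPM. The highest time was 2.5-fold above the lowest in Old (95% interval 1.62 to 3.95 from the counts) and 2.44-fold in Young without 4 h (1.61 to 3.76). Such intervals, here and below, set the highest against the lowest of the same libraries, picked by their values, so they test no cycle. By that measure Rora had 1.86-fold in Old (1.26 to 2.79) and 2.47-fold in Young without 4 h (1.64 to 3.8). The shared curve of Clock had an amplitude of 0.56 and an adjusted p of 0.377 by edgeR in 12 libraries, and 0.59, a peak at 20.2 h and 0.0223 in the 11. The call in 11 libraries was lost without Young 8 h, Old 8 h, Old 12 h or Old 20 h, with adjusted p up to 0.0894, and with library totals in place of TMM scaling (0.0605).

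Npas2, the relative of Clock that also pairs with BMAL1, was low and was seen mainly at the hours when Arntl was high. It had 13, 1, 0, 0, 7 and 18 counts in Old from 4 to 24 h, against 33, 0, 0, 0, 3 and 6 in Young. As CPM these were 9.26, 0.784, 0, 0, 5.59 and 15.4 in Old, against 11.3, 0, 0, 0, 2.56 and 4.54 in Young. Old at 24 h was the highest of the 12 libraries, and at 8, 12 and 16 h only 1 count was seen in both ages together. With each 0 set to 3 counts, the highest time was 6.96-fold above the lowest in Old and 4.54-fold in Young, or 1.82-fold in Young without 4 h. These too are no lower bounds. In Young the counting interval at 24 h (1.67 to 9.88 CPM) overlapped that at 8 h (up to 3.06 CPM). As a share of Npas2 and Clock counts together, Npas2 made up 20.5% in Old 24 h (95% exact binomial interval 12.6 to 30.4%) and 8.7% in Young 24 h (3.26 to 18%). At 12 h it was 0% of that sum in both, with upper limits of 11.2% in Old and 8.41% in Young. Gene length was left out of these shares, so they compare libraries and not the levels of both genes.

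Npas2 and Nr1d1 did not pass the main filter on low counts, so their tests come mainly from a fit that kept all 6 genes, chosen after their counts were seen. Planned edgeR fits of 12 libraries also tested their shared curves. With at least 1 CPM in 6 libraries the adjusted p was 0.0201 for Npas2 and 0.0801 for Nr1d1, which was not called. With no filter these were 0.000398 and 0.000588. With all 6 genes kept, Npas2 had a shared curve with an amplitude of 3.17, a peak at 0.93 h and an adjusted p of 0.011 in 12 libraries by edgeR. Without Young 4 h it had an amplitude of 3.06, a peak at 0.45 h and an adjusted p of 0.000377. The call in 12 libraries was lost without Young 12 h, Old 12 h or Old 24 h (adjusted p up to 0.0975), and the call in 11 held with each further library left out (0.000456 to 0.00259).

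Nr1d1, which encodes the repressor REV-ERB alpha, was highest at 8 h in Old and at 4 and 8 h in Young, and was at most 4 counts from 16 h on. It had 10, 31, 9, 0, 1 and 1 counts in Old from 4 to 24 h, against 86, 25, 8, 4, 4 and 0 in Young. As CPM these were 7.12, 24.3, 6.95, 0, 0.798 and 0.856 in Old, against 29.5, 20.8, 6.81, 3.88, 3.41 and 0 in Young. Old had a single high time at 8 h, and Young was high at both 4 and 8 h, the first of these in the library rich in neural markers. Scaled by TMM factors, Young had 16.5 CPM at 4 h and 22.7 CPM at 8 h, so its highest time was then 8 h. Old had 7.27 and 26 CPM. With each 0 set to 3 counts, the highest time was 11-fold above the lowest in Old and 9.14-fold in Young without 4 h, again no lower bounds. The shared curve of Nr1d1 had an amplitude of 2.32, a peak at 7.61 h and an adjusted p of 0.0464 in 12 libraries by edgeR with all 6 genes kept. This call was lost in 9 of 12 fits that left out 1 library (adjusted p up to 0.323), which were those without Young 8, 12 or 16 h or any 1 of the 6 Old libraries. It was also lost with library totals (0.149) and with limma-voom (0.0574), and the planned filter of at least 1 CPM in 6 libraries gave no call (0.0801). In the 11 libraries the amplitude was 2.31, the peak 8.01 h and the adjusted p 0.00088, which stayed under 0.05 in each of 11 leave-outs (up to 0.0349).

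Exons of Nr1d1 share 263 bases, 8.55% of their length, with Thra on the opposite strand. Thra encodes the thyroid hormone receptor alpha. The labels do not say whether counting used strand, so counts in that stretch are uncertain. Thra had 18.4 to 31.9 CPM in Old, 281 CPM in Young 4 h and 9.36 to 30.3 CPM in the other Young libraries. It was thus high in the same library as the 29.5 CPM of Nr1d1, and its part in that value was not tested. Arntl shares 0.439% and Rora 0.627% of its exon bases with an antisense gene.

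Nr1d2, which encodes REV-ERB beta, was highest at 12 h in both ages. Its values were 17.1, 42.3, 48.7, 19.2, 7.98 and 8.56 CPM in Old from 4 to 24 h, against 43.9, 63.9, 84.2, 17.5, 5.97 and 4.54 CPM in Young. Libraries of 8 and 12 h lay above those of 16, 20 and 24 h in both ages. The highest time was 6.1-fold above the lowest in Old (3.11 to 13.3) and 18.5-fold in Young (8.23 to 51.8). The shared curve of Nr1d2 had an amplitude of 1.75, a peak at 9.97 h and an adjusted p of 0.000508 by edgeR in 12 libraries, and 1.79, 10.2 h and 1.2e-07 in the 11. Nr1d1 made up 36.5% of the REV-ERB counts in Old 8 h (26.3 to 47.6%) and 24.5% in Young 8 h (16.5 to 34%), and at 12 h it made up 12.5% in Old (5.88 to 22.4%) and 7.48% in Young (3.28 to 14.2%). The share of Nr1d1 was thus lower at 12 h than at 8 h in both ages, with intervals that did not overlap.

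Rora, which encodes the activating receptor ROR alpha, did not follow a 24 h curve that passed the test. Its values were 58.4, 31.4, 40.2, 39.8, 39.9 and 51.3 CPM in Old from 4 to 24 h, against 60.3, 49, 65.5, 37.9, 41 and 26.5 CPM in Young. Old was highest at 4 and 24 h. Young was highest at 12 h, followed in CPM by 4 h, the library rich in neural markers, which at 33.7 CPM after TMM scaling was instead the second lowest of the 6 Young libraries. In CPM every neighbouring pair in the order of times had overlapping ranges. The shared curve had an amplitude of 0.11 with an adjusted p of 0.923 by edgeR, and 0.12 with 0.877 in the 11 libraries. At 24 h Rora stood at 51.3 CPM in Old (95% Poisson interval 39.2 to 66.1) and at 26.5 CPM in Young (18.4 to 36.8), and at 12 h at 40.2 CPM in Old (30 to 52.7) and 65.5 CPM in Young (51.7 to 81.9). These are single libraries, Old 24 h being the one with high immune markers, and the intervals hold counting error alone.

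**Figure D1:**
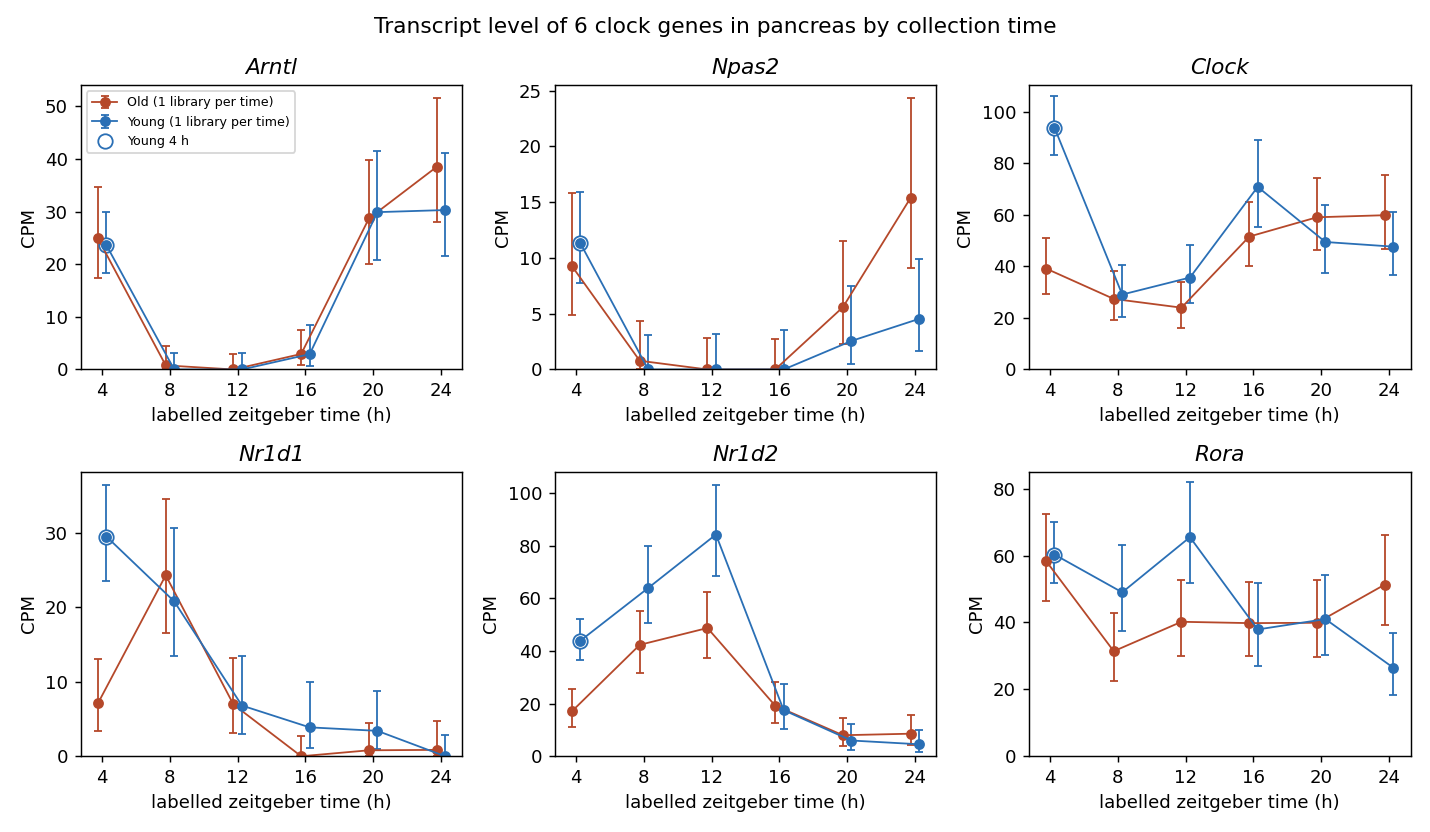
CPM (vertical axis, linear, from 0) of each gene against the labelled zeitgeber hour in Old and Young, 1 library per point, with 95% Poisson intervals from the counts and an open ring on Young 4 h. Arntl and Npas2 are high at 20, 24 and 4 h and Nr1d2 at 8 and 12 h in both ages, while Rora stays between 26.5 and 65.5 CPM.

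Per kilobase of exon the levels can be compared between genes. Nr1d2 averaged 4.43 CPM per kb in Old and 6.51 CPM per kb in Young without 4 h, the highest of the 6 in both. Clock averaged 3.17 CPM per kb in Old and 3.39 in Young, and Rora 3.33 CPM per kb in Old and 3.36 in Young. Npas2 averaged least, 1.08 CPM per kb in Old and 0.296 CPM per kb in Young. At its highest time Nr1d1 reached 7.9 CPM per kb in Old and 6.76 CPM per kb in Young, above the highest of Clock (4.36 in Old and 5.17 in Young). Exon lengths were merged over transcripts and ran from 3.08 kb in Nr1d1 to 13.73 kb in Clock, and a merged length can exceed that of any single transcript.

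In all 12 libraries the shared curve was called for 2 of the 4 genes that passed the filter, Arntl and Nr1d2, where 0.155% of 5808 genes were called. Without Young 4 h it was called for 3 of 4, with Clock added, where 1.49% of 5852 genes were called. With all 6 genes kept it was called for 4 of 6 in 12 libraries (0.258% of 5810 genes) and for 5 of 6 in 11 libraries (1.52% of 5854 genes), all but Rora. The 6 genes were chosen as clock genes, so a share above the background describes them and supports nothing further.

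Within Old, no gene of the 6 passed the test of its own curve in 12 libraries by edgeR, where 0% of genes were called with the filter and 0% with all 6 genes kept. In that test 201 genes of 5808 had an unadjusted p under 0.05, less than the share of 0.05 expected with no curve in any gene. DESeq2 called 2 of the 4 genes there, where it called 4 of 5808 genes, and limma-voom called 0. With all 6 genes kept, DESeq2 also called Npas2 (adjusted p 0.0303) and Nr1d1 (0.00538) in Old, where it called 6 genes in all. Leaving out Young 24 h in place of Young 4 h also let edgeR call Arntl and Nr1d2 in Old, where 4 of 6000 genes were called. Without Young 4 h the Old curve was called for Arntl (adjusted p 0.000257) and Nr1d2 (0.000445), where 0.752% of genes were called. With all 6 genes kept it was called for 4, with Npas2 (0.0115) and Nr1d1 (0.00772) added, where 0.786% were called. Leaving out Old 24 h ended the call of Npas2 (0.0562), and leaving out Old 8 h ended that of Nr1d1 (0.288). The Old libraries were the same in both fits. Clock in Old had an amplitude of 0.68 and an adjusted p of 0.11 in the 11 libraries.

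Within Young, Nr1d2 was called in 12 libraries (amplitude 2.1, adjusted p 0.00372 by edgeR) and Arntl was not (3.33, 0.0957), where 0.0517% of genes were called with the filter and 0.0516% with all 6 genes kept. The call of Nr1d2 was lost with library totals in place of TMM (0.188), and Arntl was called without Young 8 h or without Young 24 h. Over all genes, 318 of 6032 were called in Young without Young 8 h and 435 of 6000 without Young 24 h, beside 3 of 5808 with every library. Without Young 24 h, Npas2 (0.025) and Nr1d1 (0.0342) were called in Young as well with all 6 genes kept, where the count of all genes called was 440, beside 3 with every library. Without Young 4 h Arntl and Nr1d2 were called, Arntl with an adjusted p of 0.000125 and Nr1d2 with 2.03e-06, where 0.171% of genes were called with the filter and 0.171% with all 6 genes kept. Npas2 (0.518) and Nr1d1 (0.481) were not called in Young in the 11 libraries. That they were called in Old and not in Young does not show a difference between ages, which was tested separately.

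Least squares fits of a 24 h cosine to log2 CPM gave peak hours with an error for each age. That error reflects the scatter of few libraries about the curve and can be smaller than counting error. Fits of Old and of all 6 Young libraries used the scaling of the 12 libraries, and those of Young without 4 h that of the 11. A count of 0 had a log2 CPM of 0.498 in the first and 0.726 in the second. Amplitudes of genes with 0 counts are thus not on the same scale in both. Arntl peaked at 23.5 ± 0.4 h in Old (SE, n = 6) and at 22.5 ± 0.4 h in Young without 4 h (n = 5). Npas2 peaked at 0.7 ± 0.4 h in Old and at 23.9 ± 0.8 h in Young without 4 h. Clock peaked earlier, at 21.3 ± 0.8 h in Old and 19 ± 1.5 h in Young without 4 h. Nr1d1 peaked at 7.6 ± 0.8 h in Old and 9.9 ± 2.6 h in Young without 4 h, and Nr1d2 at 10.3 ± 0.1 h in Old and 10.1 ± 0.4 h in Young without 4 h. The peak of Nr1d2 thus came 2.7 h after that of Nr1d1 in Old, more than the 0.8 h error of Nr1d1 there. In Young without 4 h it came 0.2 h after that of Nr1d1, within the 2.6 h error of Nr1d1. Arntl peaked 13.2 h after Nr1d2 in Old and 12.4 h after it in Young without 4 h, close to opposite phases of a 24 h curve. Relative to Nr1d1, Arntl peaked 15.9 h later in Old and 12.6 h later in Young without 4 h.

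**Figure D2:**
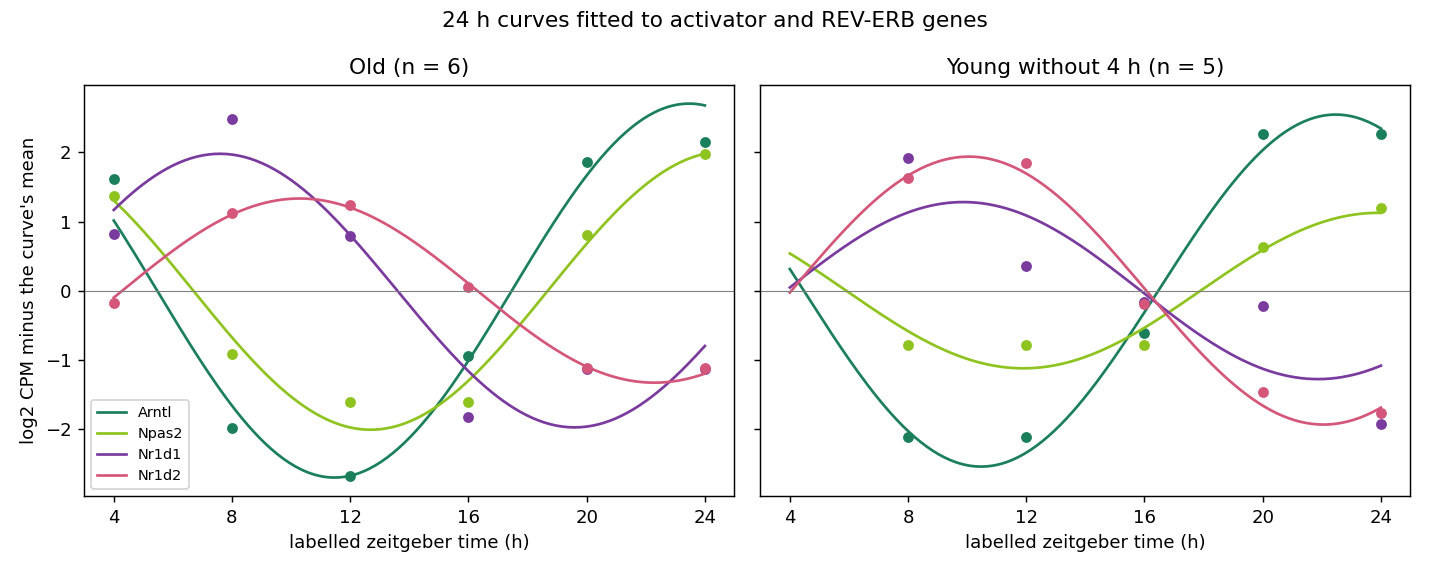
Curves of a 24 h period fitted by least squares to log2 CPM (prior count 2), minus each curve's mean, against the labelled zeitgeber hour, with 1 point per library: Old on the left (n = 6) and Young without 4 h on the right (n = 5). The curve of Arntl is high when that of Nr1d2 is low, its peak coming 13.2 h after that of Nr1d2 in Old and 12.4 h in Young without 4 h, while it comes 15.9 h after that of Nr1d1 in Old and 12.6 h in Young without 4 h. Young without 4 h is in the scaling of 11 libraries and Old in that of 12.

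Across the 11 libraries the log2 CPM of the 6 genes were correlated as follows, given as a description in which libraries share time, depth and scaling. Arntl and Npas2 had a Pearson r of 0.89, and Arntl and Nr1d2 one of -0.94. Arntl and Nr1d1 had an r of -0.63, Npas2 and Nr1d2 one of -0.73 and Npas2 and Nr1d1 one of -0.41. Nr1d1 and Nr1d2 had an r of 0.74, and Clock had 0.65 with Arntl but 0.37 with Npas2. Rora lay between -0.14 and 0.37 with the other 5.

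The ages were compared at each time. Nr1d2 was lower in Old at 4, 8 and 12 h, with Old minus Young at -26.8, -21.6 and -35.5 CPM, and higher at 16, 20 and 24 h, at 1.7, 2.01 and 4.02 CPM. Scaled by TMM factors, the 4 h values were 17.5 CPM in Old and 24.5 CPM in Young, the library rich in neural markers. At its peak hour of 12 h it stood at 48.7 CPM in Old (95% Poisson interval 37.4 to 62.3) and at 84.2 CPM in Young (68.4 to 103), intervals that did not overlap. Its least squares amplitude was 1.33 ± 0.04 in Old (SE, n = 6), against 1.98 ± 0.16 in Young (n = 6) and 1.94 ± 0.14 in Young without 4 h (n = 5). The difference of Old minus Young was -0.65 ± 0.16, or -0.61 ± 0.15 without Young 4 h, where Old kept the scaling of 12 libraries and Young had that of the 11. With each library left out, Old stayed between 1.31 and 1.38 and Young between 1.85 and 2.1. The error of 0.04 in Old rests on a residual SD of 0.08 in log2 CPM about the curve. Counting error alone was wider, with the 10 counts of Old 20 h spanning 3.83 to 14.7 CPM. The errors of this difference may thus be too small. The test of the curve difference by edgeR did not pass, with an adjusted p of 0.947 in 12 libraries and 1 in the 11.

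Npas2 was higher in Old at 8, 20 and 24 h, equal at 12 and 16 h with 0 counts in both, and lower in CPM at 4 h. That last direction turned with TMM scaling, at 9.46 CPM in Old and 6.32 CPM in Young at 4 h. At 24 h it stood at 15.4 CPM in Old (9.13 to 24.3) and 4.54 CPM in Young (1.67 to 9.88). The immune markers were also high in Old 24 h, at 257.6 CPM against 88.53 CPM in Young 24 h, and their part in this value was not tested. The level of Npas2 differed by a log2 of 0.83 between Old and Young in 12 libraries (adjusted p 0.792 by edgeR) and by 1.55 in the 11 (0.673), on 39 counts in Old and 9 in Young without 4 h. Its least squares amplitude was 2.02 ± 0.19 in Old and 1.49 ± 0.33 in Young, both in the scaling of 12 libraries. In Young without 4 h it was 1.13 ± 0.21 in the scaling of the 11. A count of 0 has a higher log2 CPM there, so that value is not compared with Old. Prior counts of 0.5 and 5 in place of 2 moved the amplitude to between 1.34 and 3.12 in Old and between 0.63 and 2.14 in Young without 4 h.

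No gene of the 6 passed the test of an age difference in level by edgeR, DESeq2 or limma-voom, where edgeR called 0.0172% of genes in 12 libraries and 0.205% in the 11. DESeq2 gave Arntl, Npas2 and Nr1d1 no adjusted p in the 11. The log2 difference of Old minus Young was 0.27 for Arntl, -0.25 for Clock, -0.3 for Nr1d2 and 0.02 for Rora in 12 libraries, with adjusted p from 0.819 to 0.992. In the 11 libraries it was 0.38 for Arntl, -0.1 for Clock, -0.31 for Nr1d2 and -0.05 for Rora, so that Rora changed its sign. Nr1d1 had -0.69 in 12 libraries and -0.3 in the 11. At an unadjusted p under 0.05 none of the 4 filtered genes passed in 12 or in 11 libraries, and with all 6 kept Npas2 passed in the 11.

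No gene of the 6 passed the test of a curve difference between ages by edgeR, DESeq2 or limma-voom, where 0% of all genes were called in 12 libraries and 0% in the 11. Of all genes, 274 had an unadjusted p under 0.05 for that difference in 12 libraries and 238 in the 11, each less than the share of 0.05 expected with no difference in any gene. Among the 6, none did in 12 libraries, and Arntl and Rora did in the 11, where their adjusted p was 1. The amplitude of Arntl by edgeR was 2.88 in Old and 4.29 in Young in that fit, and both Young troughs were at 0 counts. By least squares in the scaling of 12 libraries it was 2.71 ± 0.29 in Old and 2.77 ± 0.28 in Young, a difference of -0.06 ± 0.4. Young without 4 h had 2.55 ± 0.19 in the scaling of the 11, where a count of 0 has a higher log2 CPM. That value is therefore not compared with Old. Rora had its fitted peak at 0.6 ± 2.5 h in Old and 11.5 ± 1.5 h in Young, on curves with amplitudes of 0.23 ± 0.15 in Old and 0.4 ± 0.16 in Young that no test called.

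**Figure D3:**
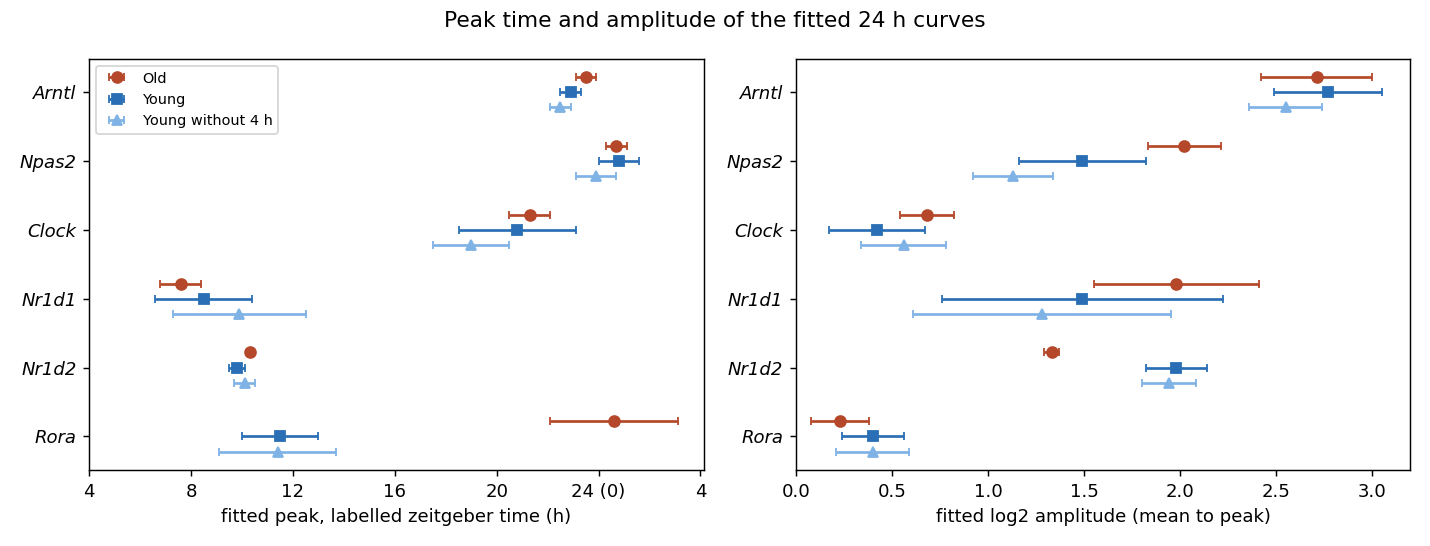
Peak hour (left) and log2 amplitude (right) of the least squares curve of each gene in Old, Young and Young without 4 h, as points with standard errors from fits to 6, 6 and 5 libraries. Peaks of Arntl, Npas2, Nr1d1 and Nr1d2 lie within 2.3 h between Old and Young, and the amplitude of Nr1d2 is 1.33 in Old, against 1.98 in Young.

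Genes whose log2 CPM was most like that of a member over the 11 libraries were named by Pearson r, as a description over 5713 genes. For Arntl the highest were Irf2bp2 (r = 0.945), Hivep3 (0.942) and Cmtm6 (0.931), and the lowest were Nr1d2 (-0.941), Tef (-0.935) and Per1 (-0.931). Tef encodes a D box binding factor and Per1 a clock repressor. For Nr1d2 the highest were Klf9 (0.922), which encodes a glucocorticoid-induced factor, Gucd1 (0.898) and Per1 (0.897), and the lowest were Arntl, Ypel2 (-0.927) and Irf2bp2 (-0.912), which encodes a corepressor of IRF2. For Clock they were Sema3c (0.917), Tlcd4 (0.915) and Psmd1 (0.91), a proteasome subunit, with Stau1 (-0.929), which encodes a binder of double-stranded RNA, R3hdm2 (-0.917) and R3hcc1 (-0.908) lowest. For Rora they were Cdadc1 (0.816), Atp11a (0.807) and Slc30a1 (0.796), a zinc exporter, with Rcl1 (-0.84), Ppp2r5b (-0.819) and Cox6c (-0.817), a subunit of cytochrome c oxidase, lowest, and none of these 6 had a shared curve that passed.

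Other genes of the loops were counted from lists. Of 11 other clock genes with E boxes, 7 were tested, and the shared curve was called for 4 in 12 libraries by edgeR: Per1 (amplitude 1.74, peak 11.3 h, adjusted p 0.00117), Tef (1.28, 10.7 h, 0.0303), Per2 (1.29, 13.8 h, 0.04) and Per3 (1.49, 10.4 h, 0.0447). Without Young 4 h Cry1, a repressor with both E boxes and ROR elements, was added (0.99, 17.5 h, 0.0396). Their median amplitude was 1.28 in 12 libraries, beside 0.27 over all tested genes.

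The REV-ERB corepressor complex gave no call of the shared curve among 6 tested genes, with Hdac3, its deacetylase, at an amplitude of 0.65 and an adjusted p of 0.427 in 12 libraries. Kinases and ligases that act on these factors gave none of 10, bHLH-PAS relatives none of 3 and haem genes none of 5, in 12 and in 11 libraries by edgeR. In the order just given, these 4 lists held 1, 0, 1 and 0 genes at an unadjusted p under 0.05 in 12 libraries and 0 each in the 11. Their median amplitudes in that order were 0.17, 0.23, 0.36 and 0.36 in 12 libraries, beside 0.27 over all tested genes. No gene of these 4 lists or of the E box list was called for age by edgeR in either set of libraries. At an unadjusted p under 0.05 for age there was 1 kinase or ligase in 12 libraries, and 2 corepressor genes, 1 kinase or ligase and 1 haem gene in the 11.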

How the data were processed

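RNA of 12 mouse pancreas libraries, 6 of each age, was sequenced as polyadenylated RNA per the labels' protocols. The values deposited are raw integer counts for each gene symbol, which the authors made with STAR and HTSeq on GRCm38 (mm10) per the submitters' processing notes. Versions, annotation and strand setting are not stated there, and the deposited table's name points to another counting tool, so which made the counts is uncertain. Library columns were matched to samples by the labels. CPM used column totals. Genes that filterByExpr kept, grouped by age (5808, or 5852 without Young 4 h) were scaled by TMM and tested with edgeR 4.0.16 (R 4.3.3) quasi-likelihood fits of age and a 24 h cosine and sine, called at a Benjamini-Hochberg adjusted p under 0.05. Single-age and difference tests came from a fit in which Old and Young each had a curve. Least squares curves used log2 CPM with a prior count of 2. Alternatives were RLE scaling, library totals, no filter, at least 1 CPM in 6 libraries, limma-voom (limma 3.58.1), DESeq2 1.42.0, separate ages, a time block, no time term, other prior counts and each library left out; fits without Young 4 h, without both 4 h libraries and with all 6 genes kept were added after seeing the data. The fits were tested on simulated data. Of 66 library pairs the closest, Young 20 h and 24 h, had a chi-square per gene of 2.49, so none was treated as a copy. Collection times are shared by both ages but no source ties libraries of 1 time to a common animal or batch. The members and lists were chosen with earlier results of these data known. Named genes are the 6 members, the 3 most and least correlated genes of each filtered member, and up to 4 of each list by lowest p; 1 related list is not reported here. Least squares fits and figures used Python 3.11.15 with matplotlib 3.10.9.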

Additional observations from a re-analysis of the deposited data

Results flagged for a closer look

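Nr1d1 at 24.3 CPM in Old 8 h stood apart from the other 5 Old libraries, which lay between 0 and 7.12 CPM. The gap to the nearest library was 0.707 of the whole range, among 12 groups of 6 libraries examined, of which chance flags about 1 in 20. The Old libraries are of different times, so this is a difference between times as well as between libraries.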

How the results depend on the processing

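Depth limited Npas2, Nr1d1 and the Arntl troughs most, at 0 to 4 counts. Of the 4 filtered genes, the shared curve was called for 2. With at least 1 CPM in 6 libraries Npas2 was added (adjusted p 0.0201 by edgeR) and Nr1d1 was tested but not called (0.0801). With no filter or with all 6 kept the shared curve was called for 4 of 6, the additions being Npas2 and Nr1d1. In the 11 libraries it was called for 3 of the 4 filtered genes, and for 5 of 6 with no filter or all 6 kept by the same additions. A further library left out gave 1 to 3. Arntl failed the filter without Old 4, 20 or 24 h, and the call of Clock was lost without Young 8 h, Old 8 h, Old 12 h or Old 20 h. In Old it was called for 0 in 12 libraries, but for 3 of 6 with no filter, 2 with DESeq2 and 0 to 2 with 1 library left out. It was 1 (Nr1d2) with Old alone or without both 4 h libraries, where Arntl failed the filter and was not tested. In the 11 it was 2 in Old, but 4 of 6 with no filter or all 6 kept, 1 with Old alone, where Arntl was again not tested, and 1 to 2 in leave-outs. In Young it was 1 in 12 libraries, but 0 with library totals, 2 with no filter, at least 1 CPM in 6, limma-voom or DESeq2, and 1 to 2 in leave-outs; in the 11 it was 2, and 1 to 2 in leave-outs. The count of 0 with Young alone, in 12 and in 11 libraries, covers Clock and Rora, since Arntl and Nr1d2 failed the filter there and were not tested.

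Age differences, none of them called, turned sign for Rora with library totals (-0.131, a scaling that put the median of all genes at -0.17 beside -0.02), no time term (-0.001) and without both 4 h libraries (-0.132), and in leave-outs from -0.101 to 0.134. Arntl reached -0.226 to 0.593. In the 11 libraries leave-outs ran from -0.257 to 0.076 for Rora, -0.194 to 0.035 for Clock and -0.08 to 0.832 for Arntl. The causes were not tested. With collection time as a replicate block, the age difference was called for 0 of the 4 genes (Nr1d2 -0.292), as without the block, and that block changed no call. Of 204 least squares values with a library left out 19 moved, and 15 of 72 with another prior count. A peak hour counted as moved beyond its SE. An amplitude did so only beyond the residual SD of its curve, which is larger than its SE, so smaller shifts are not in these counts. Over all genes, calls in 12 libraries were 9 for the shared curve (4 to 87 in leave-outs, up to 648 with no filter), 0 for Old (up to 44, and 37 without both 4 h libraries), 3 for Young (2 to 435, and up to 1144 with no filter), 0 for the curve difference (0, and up to 113 with no filter) and 1 for age (1 to 12, and up to 67 with no filter). In the 11 they were 87 (37 to 105, up to 180), 44 (20 to 78, up to 151), 10 (8 to 21, 1 to 28), 0 (up to 4, and 24) and 12 (5 to 16, up to 33).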
